A study of Homo sapiens with 4 samples.

Results

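Transcript levels of 10 genes of the actin cytoskeleton were followed in KYSE150 cells, an established line from a human esophageal squamous cell carcinoma, after siRNA against the transcription factor gene CEBPG. The genes were TPM1, TPM2, TPM3 and TPM4 (tropomyosins), ACTB and ACTG1 (cytoplasmic actins), MYH9 (a myosin II heavy chain), MTPN (myotrophin), and CAPZA1 and CAPZB (capping protein). They were found by name among the 17825 rows of the deposited table, 1 row each. The set was chosen from gene families with the siRNA to control differences of these same libraries in view, so their changes are given as a description, without a p-value for any of them. RNA-seq was done on 4 libraries of cells grown in RPMI1640 with serum: 2 libraries given a negative control (called Control) and 2 transfected with siRNA1 against CEBPG (called siCEBPG). All data come from 1 cell line and 1 siRNA duplex, whose dose, time of action and sequence the labels leave out. Nothing in the labels states that libraries of 1 group are independent cultures, so the spread between them may be technical.

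Actin monomers assemble into filaments that carry the cortex, lamellipodia and stress fibres of a cell. Tropomyosins are coiled-coil proteins that lie along the filament and differ in which myosins and severing proteins they admit to it. Capping protein, a dimer of an alpha subunit (CAPZA1 or CAPZA2) and a beta subunit (CAPZB), closes the fast-growing barbed end, and myotrophin binds that dimer and holds it away from the filament. Myosin IIA, whose heavy chain MYH9 encodes, pulls on filaments to make contractile tension.

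CEBPG itself was lower, which checks the labels. It stood at 52.8 and 50.2 CPM under Control and at 13.4 and 12.8 CPM under siCEBPG, where CPM is the read count scaled to a TMM-corrected library size. Library totals were 15432762 to 15536501 reads, and the 10 genes together took 1.08% to 1.11% of them. As a check of the cell type, the summed level of 10 squamous and epithelial markers was 2418 to 2581 CPM in the 4 libraries. That sum came mostly from CDH1, KRT5, SFN, DSP and EPCAM (means of 804, 495, 396, 367 and 202 CPM in Control). The keratin genes KRT14, KRT17 and KRT6A had Control means of only 9.68, 10.8 and 11.2 CPM. Single markers differed in both directions, with log2 fold changes from -1.09 for KRT14 to 1.53 for PERP. The summed level of 9 stroma, immune and endothelial markers was 11.2 to 14.1 CPM, with PTPRC and PECAM1 not listed, and that of 6 retina markers, looked at because the series text calls the profiles retinal, was 1.9 to 3.0 CPM, with RPE65 not listed. The sum of 9 muscle markers was 109 and 112 CPM in Control and 132 and 136 CPM in siCEBPG libraries. It came mostly from TNNT1 and TTN, while DES, MYOD1, MYOG and CKM were not listed, and its part in the results was not tested.

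All 10 genes passed the filter on low counts. Past an edgeR adjusted p of 0.05 were 2 of them on the higher side (TPM4 and MYH9) and 4 on the lower side (TPM3, ACTB, ACTG1 and MTPN), beside 25.5% of all 14207 genes tested that were higher and 28.8% that were lower, 54.3% in either direction. The Control and siCEBPG libraries did not overlap in CPM for 7 of the 10 genes, beside 76.2% of all genes tested. The set was chosen with these same differences known, so nothing is read from the counts. The median log2 fold change of the 10 genes was -0.03, and that of all genes tested was 0.005. In RNA from a whole culture, fewer cells that express a gene and less RNA per cell cannot be told apart.

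**Figure D1:**
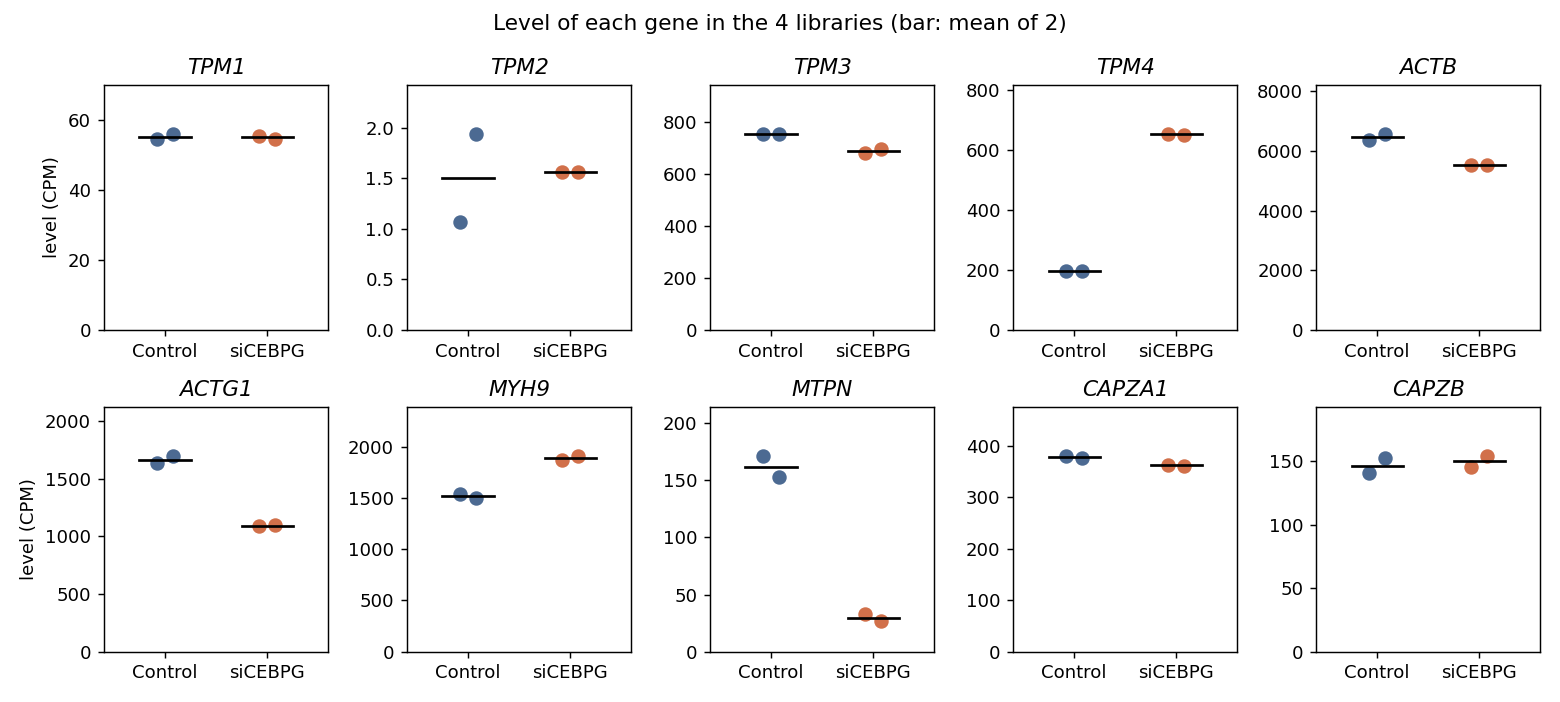
Level of each of the 10 genes in CPM (linear axes from 0, a separate scale for each gene) in the 2 Control (blue) and 2 siCEBPG (orange) libraries, with a bar at each mean. TPM4 went from 195 and 198 to 654 and 650 CPM and MTPN from 172 and 152 to 32.6 and 26.7 CPM, while TPM1 and CAPZB overlap between the groups.

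TPM4 was higher, by more than any other tropomyosin gene. It encodes a cytoplasmic tropomyosin of stress fibres and the cell cortex, from chr19:16067021-16103005 (plus strand, GRCh38). Its raw read counts of 2924 and 2966 under Control stood beside 10448 and 10387 under siCEBPG. In CPM these were 195 and 198 against 654 and 650, so that both siCEBPG libraries stood far above both Control libraries. The group means were 197 ± 2.26 and 652 ± 2.52 CPM (SD, n = 2), a 3.32-fold difference and a log2 fold change of 1.73 (SE 0.036). TPM4 ranked 66 from the top by log2 fold change among the 14207 genes tested. The authors' deposited table gives it a log2 fold change of 1.72.

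TPM3, the most abundant tropomyosin gene of the Control libraries, was slightly lower. It stood at 753 and 752 CPM in the Control and 678 and 693 CPM in the siCEBPG libraries. The log2 fold change was -0.13 (SE 0.034), and its place past the threshold was lost in 5 of 10 alternatives, namely with upper-quartile factors, with total counts alone, without Control replicate 1 or 2 and without siCEBPG replicate 1. TPM1 was at 54.5 and 56.1 CPM in Control and 55.6 and 54.8 CPM in siCEBPG libraries. The groups overlapped, with a log2 fold change of -0.004 and a 95% interval of -0.12 to 0.11, and its sign changed in 5 of 10 alternatives. TPM2 was near the lower limit of detection, at 16 and 29 counts in Control and 25 and 25 in siCEBPG libraries. Its log2 fold change of 0.06 had a 95% interval of -0.60 to 0.72, so differences within that interval were not detectable at this depth. It was -0.31 without Control replicate 1, where the sign turned, and 0.54 without Control replicate 2.

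The balance among the 4 tropomyosin genes therefore differed between the groups. The authors' RPKM (reads scaled by library size and gene length) allow levels of different genes to be set side by side. In RPKM, TPM4 stood at 25.4 and 25.8 in Control and 91.3 and 90.4 in siCEBPG libraries, and TPM3 at 86.8 and 86.7 in Control and 83.9 and 85.4 in siCEBPG libraries. In RPKM, TPM4 was thus below TPM3 in both Control libraries and above it in both siCEBPG libraries. In read counts it stayed below TPM3 in both siCEBPG libraries, at 10448 and 10387 beside 10836 and 11075, so the order in siCEBPG rests on the length correction. In RPKM the libraries had a ratio of TPM4 to TPM3 of 0.295 ± 0.0035 in Control and 1.07 ± 0.021 in siCEBPG (SD, n = 2). TPM4 made up 21.5% ± 0.15 of the summed tropomyosin RPKM in Control and 49.7% ± 0.44 in siCEBPG libraries (SD, n = 2). TPM3 went from 72.9% ± 0.36 to 46.4% ± 0.50, TPM1 from 5.29% ± 0.086 to 3.68% ± 0.054, and TPM2 stayed under 0.39% in each library. Shares within a library do not depend on the scaling between libraries. The summed RPKM of the family was 119 in both Control libraries and 182 and 183 in the siCEBPG libraries, on the scale of total reads that RPKM uses. The gene lengths implied by count and RPKM, 7.42 kb for TPM4 and 8.37 kb for TPM3, are longer than the coding transcripts used here (2539 and 1523 bases), so RPKM levels between genes rest on the authors' length definition.

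**Figure D2:**
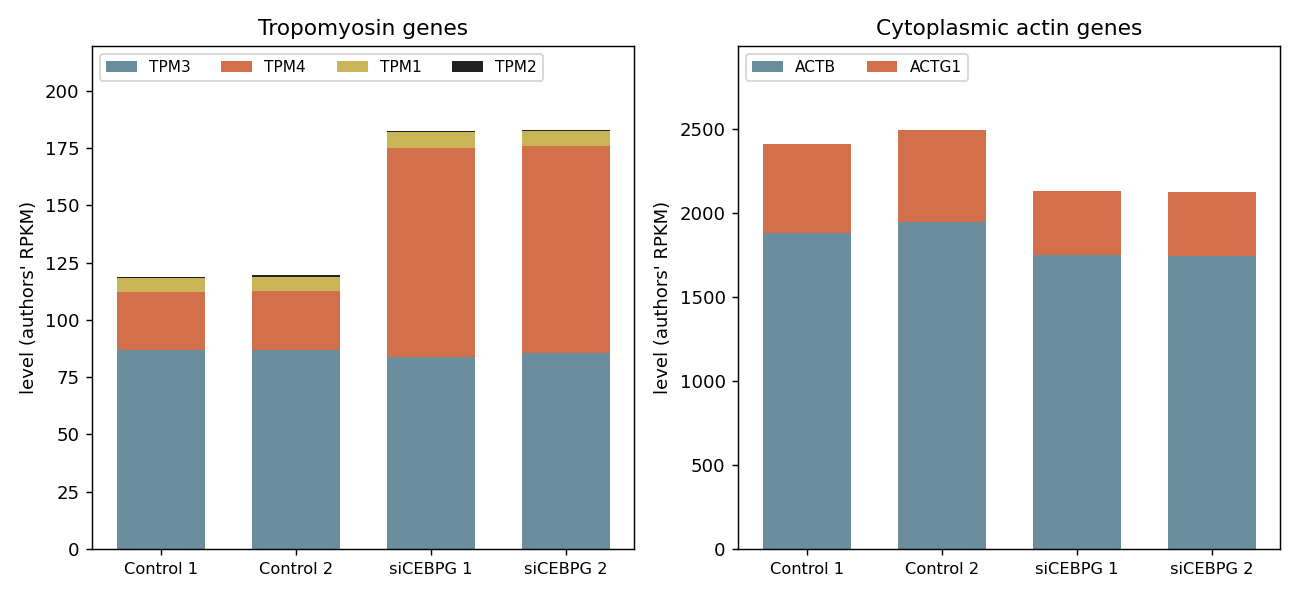
Stacked levels in the authors' RPKM of the 4 tropomyosin genes (left) and the 2 cytoplasmic actin genes (right) in each of the 4 libraries. The TPM4 part grows from 25.4 and 25.8 to 91.3 and 90.4 RPKM on a nearly level TPM3 part, while both actin parts are smaller in the siCEBPG libraries.

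Both cytoplasmic actin genes were lower, ACTG1 more than ACTB. ACTB encodes beta-actin, a frequent reference gene of quantitative PCR, and ACTG1 encodes gamma-actin. On GRCh38 ACTB lies at chr7:5527147-5563784 and ACTG1 at chr17:81509971-81523847, each on the minus strand. ACTB stood at 6356 and 6569 CPM in Control and 5516 and 5515 CPM in siCEBPG libraries, a log2 fold change of -0.23 (SE 0.033) and a 1.17-fold lower mean. ACTG1 stood at 1633 and 1700 CPM in Control and 1087 and 1101 CPM in siCEBPG libraries, a log2 fold change of -0.61 (SE 0.034) and a 1.52-fold lower mean. Each gene was lower in both siCEBPG libraries than in either Control library. Over the 10 alternatives the log2 fold change ranged from -0.25 to -0.13 for ACTB and from -0.64 to -0.51 for ACTG1. The ratio of ACTB to ACTG1 in RPKM was 3.56 and 3.53 in Control and 4.64 and 4.58 in siCEBPG libraries. ACTB accordingly made up 78.0% ± 0.093 of actin RPKM in Control and 82.1% ± 0.14 in siCEBPG libraries (SD, n = 2), counting also the muscle actin genes ACTA1 and ACTA2, each under 0.024% of that sum. Both actin genes were lower, and of the tropomyosin genes only TPM4 was past the threshold on the higher side. The ratio of summed cytoplasmic actin RPKM to summed tropomyosin RPKM was 20.3 and 20.9 in Control. It was 11.7 and 11.6 in siCEBPG libraries, and its level rests on the authors' gene lengths.

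MYH9, at chr22:36281277-36388067 (minus strand, GRCh38), was higher. It stood at 1538 and 1503 CPM in Control and 1873 and 1915 CPM in siCEBPG libraries, without overlap, a log2 fold change of 0.32 (SE 0.033) and a 1.25-fold higher mean. The other nonmuscle myosin II heavy chain genes were not among the 10. MYH10, which encodes the heavy chain of myosin IIB, fell from 90.2 ± 4.35 to 67.8 ± 1.30 CPM (mean ± SD, n = 2 each; log2 difference -0.41, edgeR adjusted p = 8.84e-06). MYH14, for myosin IIC, had a log2 fold change of 0.15 that did not pass the test (SE 0.087, edgeR adjusted p = 0.157). The ratio of MYH9 to MYH10 in RPKM was 16.6 and 17.4 in Control and 28.2 and 28.1 in siCEBPG libraries.

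MTPN was the member with the largest fold difference. Read counts were 2573 and 2283 under Control against 521 and 427 under siCEBPG, from the locus chr7:135926761-135977353 (minus strand, GRCh38). In CPM it stood at 172 and 152 in Control and 32.6 and 26.7 in siCEBPG libraries, so the higher siCEBPG library was far below the lower Control library. The means were 162 ± 13.5 and 29.7 ± 4.15 CPM (SD, n = 2), a 5.46-fold lower level and a log2 fold change of -2.45 (SE 0.077). It ranked 11 from the bottom among the 14207 genes tested. The authors' deposited table gives -2.46.

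The genes of the dimer that myotrophin binds differed little between the groups. CAPZA1 stood at 380 and 376 CPM in Control and 362 and 361 CPM in siCEBPG libraries, which do not overlap but lie close together. Its log2 fold change was -0.07 (95% interval -0.14 to 0.009), with 0.004 under upper-quartile factors and 0.03 with total counts alone. CAPZB stood at 141 and 152 CPM in Control and 145 and 154 CPM in siCEBPG libraries, which overlap, a log2 fold change of 0.03 (95% interval -0.07 to 0.14). With total counts alone CAPZB was at 0.13 and past the threshold, and without Control replicate 1 or siCEBPG replicate 2 its sign changed. CAPZA2, a second alpha subunit gene, had a log2 fold change of -0.07 that did not pass the test (SE 0.049, edgeR adjusted p = 0.219). In RPKM the ratio of MTPN to CAPZB was 1.12 and 0.922 in Control and 0.207 and 0.160 in siCEBPG libraries, while that of CAPZA1 to CAPZB was 2.28 and 2.08 in Control and 2.10 and 1.97 in siCEBPG libraries.

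**Figure D3:**
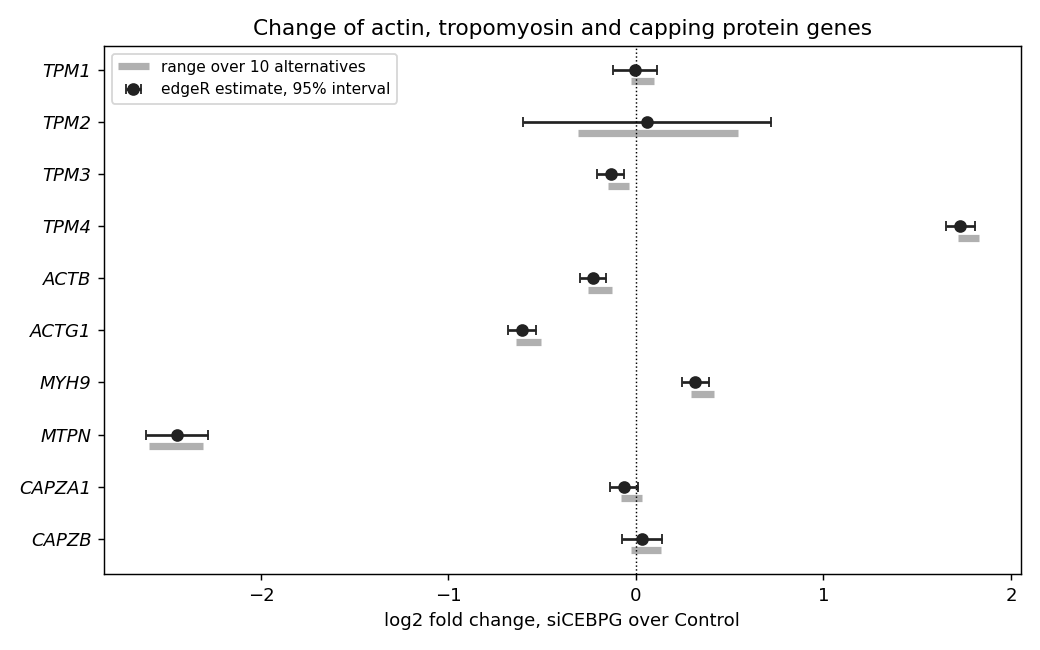
Log2 fold change of the 10 genes, siCEBPG over Control, as the edgeR estimate with its 95% interval (black), and the range over up to 10 alternative settings (grey). TPM4 at 1.73 and MTPN at -2.45 stand far from 0, and the intervals of TPM1, TPM2, CAPZA1 and CAPZB include 0.

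Several of these genes have close copies in the genome, and the labels do not tell how reads that match more than 1 gene were counted. Of the 50-base windows of the transcript used for each gene (GENCODE v29), 22.9% of those of TPM4 also occur in transcripts of 2 other annotated genes. These are AC098614.1 and AF201337.1. The share was 10.3% for ACTB, with ACTBP2, POTEE and POTEI among 17 other genes, 7.33% for TPM3 and 5.96% for CAPZA1. It was 3.58% for ACTG1, 3.47% for MTPN (shared with LUZP6) and 0.613% for MYH9. Other genes were told apart by name alone, so a gene overlapping the same locus would count like a copy elsewhere. None of the windows of TPM1, TPM2 and CAPZB was shared. Their transcripts used here have only 1049, 1392 and 858 bases, and sequence outside them was not searched. The coding sequences of ACTB and ACTG1 are identical at 1029 of 1128 bases (91.2%), and those of the tropomyosin genes at 76.9% to 80.1% of aligned bases. In the deposited table the TPM4P1 pseudogene held 3 and 11 counts in Control and 17 and 13 in siCEBPG libraries. It was picked by its name, and whether it is AC098614.1 or AF201337.1 was not checked. The 9 rows of actin pseudogenes and POTE genes held 65 to 107 counts together. The values of TPM4 and ACTB are uncertain to the extent that reads were divided among such copies, which was not tested.

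Promoter windows were searched for the CArG box, the binding motif of serum response factor (SRF), a regulator of actin genes. RefSeq windows of 300 bases around annotated starts (GRCh38.p14) were at hand for 9 of the 10 genes, all but ACTB, 13 windows in all. The box occurred in 2 of the 13, beside 1.29% of all 35116 windows, and both are shown because they belong to members of the actin and tropomyosin families that differed in opposite directions. The ACTG1 window is chr17:81512750-81513049 on the minus strand, with the box starting 94 bases before the start site. The TPM4 window is chr19:16067288-16067587 on the plus strand, the most upstream of 3 TPM4 windows, with the box starting 173 bases before the start site. Capitals mark the box, and sequences run 5′ to 3′.
ACTG1: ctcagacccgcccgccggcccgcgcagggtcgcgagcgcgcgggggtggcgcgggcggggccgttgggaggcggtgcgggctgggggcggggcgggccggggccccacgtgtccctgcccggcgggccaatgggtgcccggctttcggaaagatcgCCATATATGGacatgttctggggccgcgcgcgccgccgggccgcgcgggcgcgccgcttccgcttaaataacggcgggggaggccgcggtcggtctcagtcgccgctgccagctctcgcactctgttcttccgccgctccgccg
TPM4: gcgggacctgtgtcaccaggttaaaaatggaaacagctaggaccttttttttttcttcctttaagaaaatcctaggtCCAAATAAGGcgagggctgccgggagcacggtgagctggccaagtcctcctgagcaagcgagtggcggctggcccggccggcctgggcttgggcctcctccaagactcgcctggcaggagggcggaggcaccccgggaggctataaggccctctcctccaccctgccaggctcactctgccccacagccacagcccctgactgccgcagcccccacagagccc

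ACTG1 had a log2 fold change of -0.61 and TPM4 of 1.73. Counts per gene do not tell which of the 3 TPM4 start sites was used. Whether the CArG box has a part in either difference was not tested. The C/EBP half-site palindrome TTGCNNAA occurred in 0 of the 13 windows, beside 10.5% of all windows, and the C/EBP-ATF element TTGCATCA in 0 of 13, beside 0.866%, each searched on both strands. The GC box GGGCGG, searched likewise, occurred in all 13, beside 45.0% of all windows. A match is only a match of letters, and these windows cover a small part of the sequence near each gene.

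Transcripts were also searched for GGCTATT and CGGAGAA, 7-base words that were found on these same libraries by their relation to the direction of change, so that finding them here supports nothing further. GGCTATT occurs in the 3′ UTR of 6.92% of 11105 tested genes (those whose 3′ UTR has 50 bases or more), and CGGAGAA in 2.13%. The words GCTATTA (7.61%) and TCGGAGA (1.94%), which overlap them, were searched as well. GCTATTA is in no 3′ UTR of the 10 genes or of CEBPG. TCGGAGA is in that of TPM4 only, where it overlaps CGGAGAA. The CAPZB transcript used here has a 3′ UTR of 0 bases, so no word could be found there. That of TPM1 has only 114 bases. Of the 10 genes, MTPN has GGCTATT 2 times in its 3′ UTR of 3165 bases and TPM4 has it 1 time in a 3′ UTR of 1597 bases. The MTPN word shown lies in exon 4, the last exon, at chr7:135927778-135927784 on the minus strand, 2142 bases past the stop codon. The TPM4 word lies in exon 9 at chr19:16101850-16101856 on the plus strand, 504 bases past the stop codon. TPM4 also has CGGAGAA in its 3′ UTR, at chr19:16101494-16101500, 148 bases past the stop codon. CEBPG, the siRNA target, has GGCTATT at chr19:33379810-33379816. All coordinates are GRCh38, and the 29-base stretches around the words, in capitals, are shown as mRNA-sense DNA because the genes with the largest differences carry them.
MTPN, GGCTATT: aatgcagtagaGGCTATTtcgccttcgct
TPM4, GGCTATT: gggccgggggtGGCTATTgtgggaagtca
TPM4, CGGAGAA: atattttgtatCGGAGAAgctttgagcac
CEBPG, GGCTATT: gacccattggaGGCTATTttctgggatca

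The word shared by MTPN and TPM4 stands 2 times in the first, with a log2 fold change of -2.45. It stands 1 time in the second, with 1.73. Whether the word has a part in either difference was not tested. Only coding transcripts that GENCODE v29 tags as basic were counted. None of those of the other 8 genes has GGCTATT in its 3′ UTR. MTPN has the word in 1 of 2 coding transcripts and TPM4 in 5 of 6. CGGAGAA stands in the 3′ UTR of 6 of 6 coding transcripts of TPM4 and of 7 of 11 of TPM3, though not of the TPM3 transcript used here. In coding sequence, CGGAGAA occurs 1 time in TPM4, 1 time in TPM3 and 3 times in the long coding sequence of MYH9 (5883 bases), beside 11.3% of 11392 tested genes with it at least once.

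The genes whose pattern over the 4 libraries was most like that of TPM4 were GANAB, ZNF616 and ZNF629, by Euclidean distance of centred log2 CPM (0.064, 0.12 and 0.14), leaving out genes that average under 5 CPM. GANAB, which encodes a glucosidase subunit of the endoplasmic reticulum, stood at 204 and 218 CPM in Control and 696 and 716 CPM in siCEBPG libraries. Those most like MTPN were SGPP1, YWHAH and HDHD1 (distances 0.071, 0.15 and 0.18). YWHAH, a 14-3-3 protein gene, stood at 172 and 174 CPM in Control and 35.9 and 30.4 CPM in siCEBPG libraries. With 2 libraries in each group this measure mostly ranks genes by the size of their change.

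Among 125 other genes of actin control in 9 lists, changes went both ways. Of 113 tested, 36 rose and 34 fell at an edgeR adjusted p under 0.05, or 61.9% beside 54.3% of all genes. Their median log2 fold change was -0.0003, against 0.005 over the whole test. Total counts alone, which set the median of all genes at 0.10, gave 52 higher and 25 lower, and upper-quartile factors gave 46 and 29. Without Control replicate 1 the higher genes numbered 23, without Control replicate 2 they numbered 17, and without siCEBPG replicate 1 or 2 they numbered 24 each.

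Among genes for cross-linkers and stress fibre proteins, 10 of 19 fell and 2 rose, beside 28.8% of all genes tested that were lower and 25.5% that were higher. The list's median log2 fold change was -0.20. Total counts alone gave 9 lower and 4 higher with a median of -0.10. The focal adhesion gene ZYX fell from 293 ± 7.92 to 214 ± 0.99 CPM (mean ± SD, n = 2 each; log2 difference -0.45, edgeR adjusted p = 1.28e-07). The rises were in CALD1 (caldesmon, log2 fold change 0.17) and FLNA (filamin A, 0.16). The CALD1 call was lost without Control replicate 2 and without siCEBPG replicate 1 or 2 (edgeR adjusted p up to 0.12), and the FLNA call without Control replicate 2 (edgeR adjusted p = 0.0547).

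Among genes of monomer binding and severing, 9 of 20 rose and 7 fell (median 0.01), or 80% called beside 54.3% of all genes. LIMK1, which encodes a kinase that inactivates cofilin, rose from 229 ± 1.61 to 430 ± 7.29 CPM (mean ± SD, n = 2 each). Its log2 difference was 0.91 (edgeR adjusted p = 2.8e-11). SSH3, a gene of the slingshot phosphatase family, whose members reactivate cofilin, rose too (0.67, edgeR adjusted p = 2.91e-08). CFL2, a cofilin gene, fell by 0.60 on the log2 scale, and TMSB4X, which encodes the monomer-binding thymosin beta-4, fell by 0.52. Of 17 genes of the Arp2/3 complex and its activators, which start branched filaments, 6 rose and 5 fell (median 0.02), or 64.7% called. This count depends on the scaling, with 10 higher and 2 lower under total counts alone (median 0.12). Upper-quartile factors gave 8 higher and 5 lower (median 0.09). CTTN (cortactin, which stabilises branches) rose from 322 ± 4.99 to 563 ± 7.02 CPM (mean ± SD, n = 2 each; log2 difference 0.81, edgeR adjusted p = 7.56e-11), and BRK1 by 0.32, while the complex subunit genes ARPC5 (-0.46) and ARPC4 (-0.31) fell. Of 12 formin and Ena/VASP genes, which elongate filaments at the barbed end, 4 rose and 3 fell (median 0.01), or 58.3% called. DIAPH2 (-0.80) and DIAPH3 (-0.37) fell, and FMNL1 (0.56) and ENAH (0.31) rose, the last lost without Control replicate 2 or siCEBPG replicate 1 (edgeR adjusted p up to 0.0777).

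Of 14 other genes of filament capping, 1 rose, 1 fell and 12 did not pass the test (median 0.006), or 14.3% called beside 54.3% of all genes. This count depends on the scaling, with 5 higher and 1 lower under upper-quartile factors and 6 higher and 1 lower under total counts alone. TMOD3, which encodes a tropomodulin that caps the pointed end together with tropomyosin, fell from 171 ± 4.62 to 132 ± 5.36 CPM (mean ± SD, n = 2 each; log2 difference -0.38, edgeR adjusted p = 4.28e-06). CARMIL1, a capping protein regulator listed as LRRC16A, rose by 0.11 (edgeR adjusted p = 0.039), but was not past the threshold in 6 of 10 alternatives (adjusted p up to 0.194), among them each library left out. In dynactin, a complex that holds capping protein on a short actin-like filament, 3 of 9 genes rose and 2 fell (median 0.05, 55.6% called). ACTR1A, the main subunit of that filament, fell from 138 ± 1.88 to 76.6 ± 4.49 CPM (mean ± SD, n = 2 each; log2 difference -0.85, edgeR adjusted p = 1.82e-09), and DCTN5 fell (-0.35). DCTN1 (0.30) and ACTR1B (0.27) rose, the second lost without Control replicate 2 (edgeR adjusted p = 0.0527).

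Among myosin II subunits and regulators, 7 of 16 rose and 6 fell (median 0.06), or 81.2% called beside 54.3% of all genes. PPP1CB, the catalytic subunit of myosin phosphatase (0.40), and the kinase gene CDC42BPB (0.29) rose, and the regulatory light chain gene MYL12A (-0.44) fell beside MYH10. Of SRF and 4 cofactor genes, 3 rose and none fell (median 0.18), or 60% called. ELK4 rose from 36.9 ± 3.20 to 57.3 ± 5.07 CPM (mean ± SD, n = 2 each; log2 difference 0.63, edgeR adjusted p = 4.24e-06) and MRTFA, listed as MKL1, by 0.23, a call lost without Control replicate 1 or siCEBPG replicate 1 or 2 (edgeR adjusted p up to 0.089). SRF had a log2 fold change of -0.10 that did not pass the test (edgeR adjusted p = 0.195). Of 4 muscle actin genes, 2 were listed and 1 was tested. This was ACTA2, at 0.53 to 0.67 CPM in Control and 1.4 to 1.5 CPM in siCEBPG libraries (log2 fold change 1.28, SE 0.34, edgeR adjusted p = 0.00538).

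**Figure D4:**
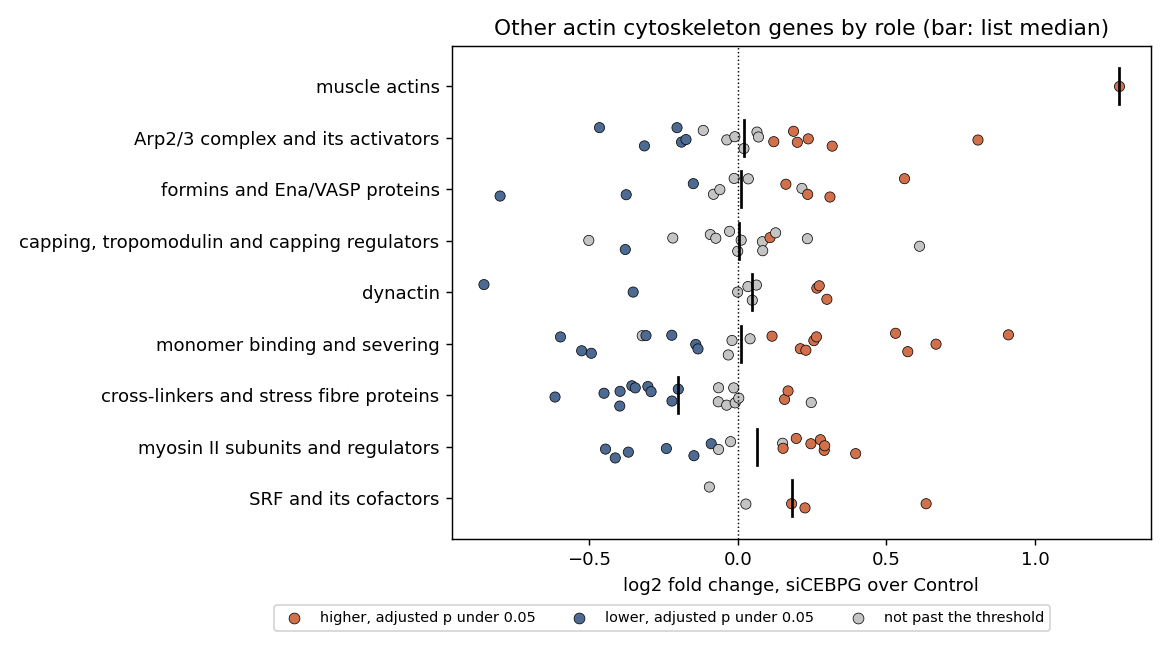
Log2 fold change, siCEBPG over Control, of 113 tested genes in 9 lists of actin control, one point per gene (orange higher, blue lower, grey not past the threshold), with a bar at each list's median. Points lie on both sides of 0 in most lists, and the median of cross-linkers and stress fibre proteins is at -0.20.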

How the data were processed

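RNA-seq libraries of KYSE150 cells, 2 Control and 2 siCEBPG, were grouped by their titles. The deposited table holds whole-number read counts per gene name, and every gene has at least 10 counts over the 4 libraries. The submitters' processing notes name hg19, RSEM 1.2.12, HISAT2 2.0.4, Bowtie2 2.2.5 and DESeq without their roles. Counts may be rounded estimates; annotation and strand setting are not stated in these sources. The table also holds, per the file headers, RPKM, a mean normalized signal, a log2 fold change with its standard error, a test statistic (score) and p-values with adjusted p-values for siRNA against control.

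Counts were tested over all genes with edgeR 4.0.16 in R 4.3.3 (TMM, filterByExpr with a minimum count of 10, two-sided quasi-likelihood F test, group as the only term, Benjamini-Hochberg adjustment, threshold 0.05), and the test was checked on simulated counts. The SE is the absolute log2 fold change over the square root of F. RPKM gave levels and shares between genes and entered no test. Alternatives were upper-quartile factors, total counts alone, DESeq2 1.42.0, no filter on low counts, a minimum count of 50, the replicate number as a block, and leaving out each library.

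Members, lists and alternatives were chosen with earlier results of these data known. Named list genes are the 2 largest rises and 2 largest falls past the threshold in each list with a mean of at least 5 CPM. Genes outside this rule (MYH14, CAPZA2, SRF, ACTA2 and those of the closing section) were chosen after their values were seen. Older gene symbols were matched through RefSeq synonyms, which found 118 of 125 list genes. Sequences come from GENCODE v29 transcripts and RefSeq promoter windows (GRCh38), not from the hg19 build of the files, which give no coordinates. One coding transcript was used for each gene, by APPRIS rank, CCDS and length. A few items that these rules would name are not reported here.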

Additional observations from a re-analysis of the deposited data

How the results depend on the processing

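Of 99 fold changes of the 10 genes recomputed over 10 alternatives, 80 moved by less than the spread between replicates, 19 moved by more, and 0 reversed the direction of a gene past the threshold. TPM4 ranged from 1.72 to 1.83 and MTPN from -2.60 to -2.31 on the log2 scale, and MYH9 from 0.29 to 0.42. Leaving out single libraries gave 1737 to 2345 genes called higher and 2572 to 3049 lower (3617 and 4098 in all 4), and 17 to 24 genes of the actin lists called higher (36 in all 4). DESeq2 called 2210 genes higher. With read counts in place of RPKM, TPM4 made up 19.5% of tropomyosin in Control and 46.8% in siCEBPG (TPM3 74.8% and 49.2%), and ACTB 79.5% and 83.4% of actin. The replicate block gave 3811 higher and 4319 lower genes, of the members 2 and 4, and changed no call among them. Deviations of replicate 1 correlated at 0.0369 between the groups over genes, so equal numbers showed little shared deviation. With 1 such difference per group, this cannot settle whether the libraries were paired. With a minimum count of 50, TPM2 could not be fitted. TPM2, at 16 to 29 counts in each library, is the member with the fewest reads.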

Other observations

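The most abundant genes of the actin lists (500 CPM or more on average) were chosen after their values were seen. Of these 10, 6 fell, 3 rose and 1 did not pass the test (edgeR adjusted p under 0.05, median log2 fold change -0.155), beside 28.8% of all genes tested that were lower and 25.5% that were higher. PFN1, which encodes profilin, the protein that hands monomers to growing filaments, stood at 875 and 921 CPM in Control and 639 and 637 CPM in siCEBPG libraries (log2 fold change -0.49, edgeR adjusted p = 2.13e-08). The cofilin gene CFL1 (-0.22), the alpha-actinin gene ACTN4 (-0.29), the bundling protein gene FSCN1 (-0.22) and RHOA (-0.09) were among the others that fell. The difference of RHOA (edgeR adjusted p = 0.0459) is smaller than the shift of 0.10 that total counts alone give the median of all genes. FLNA (0.16), CYFIP1 (0.12) and the formin gene DIAPH1 (0.24) rose, and CAP1 was at -0.02. The cofilin genes CFL1 and CFL2 were thus lower in the same libraries in which LIMK1 and SSH3 were higher.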
